A study of Mus musculus with 200 samples.

Results

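The phagocyte NADPH oxidase moves electrons from NADPH across a membrane onto oxygen and so makes superoxide. Its catalytic chain, gp91phox, is encoded by Cybb and sits in the membrane with its partner p22phox, encoded by Cyba. On activation the organiser p47phox (Ncf1) and p40phox (Ncf4) move from the cytosol to this pair together with a Rac GTPase, of which Rac2 is the form of blood-derived cells. In the brain these genes are best known from microglia and from phagocytes that enter from the blood. The genes described here are Cybb, Cyba, Ncf1, Ncf4 and Rac2, 5 of the 56941 genes in the deposited tables, chosen by gene name. Each name matched 1 row.

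RNA was sequenced from 1 brain hemisphere of each of 200 mice, of which 67 received a sham operation and the others a closed head injury (CHI). Tissue was taken at 9, 24 or 72 h. The mice were 61 C57BL/6J (4.4 to 6.8 months old), 55 labelled IL-1R1 gKO (3.3 to 7.4 months), 50 labelled IL-1R1 eRestore (4.5 to 7.4 months) and 34 labelled IL-1R1 nRestore (3.3 to 7.67 months). There were 102 females and 98 males, and the IL-1R1 nRestore mice at 72 h were all male. At 9 h, 46 CHI and 22 sham mice were compared, at 24 h 43 and 22, and at 72 h 44 and 23. The sources used here do not describe how the IL-1R1 strains were made, and the names are used as labels only. A hemisphere, taken after perfusion, holds all brain cell types, and in such bulk samples fewer cells of a type and less RNA per cell cannot be told apart.

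Total estimated counts were between 14857985 and 57355676 per mouse. Il1r1, the gene in the strain names, was not lower in the strain labelled IL-1R1 gKO: the lowest, median and highest values were 6.08, 9.91 and 17.57 CPM there (counts scaled to library size), against 2.92, 5.24 and 13.06 in C57BL/6J. The medians were 7.74 CPM in IL-1R1 eRestore and 9.35 in IL-1R1 nRestore. Which part of the gene differs between strains is not given in the sources used here, so counts over the whole gene do not check these labels. Mice came from 8 experiments, and no experiment held both 9 h and later mice, so experiment and the step from 9 h to later times cannot be told apart. At 24 h, 4 CHI mice of IL-1R1 nRestore, 5 of gKO and 4 of eRestore, 5.7 to 7.4 months old, came from an experiment with no sham mouse of those strains, whose sham mice at 24 h were 4.3 to 5.3 months old. For those mice surgery, experiment and age cannot be told apart.

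On the GRCm39 assembly Cybb (ENSMUSG00000015340) lies on the minus strand at chrX:9301491-9354010 and overlaps Xk and a lncRNA gene on the plus strand. Cyba (ENSMUSG00000006519) lies at chr8:123150422-123159706 on the minus strand and overlaps Il17c. Ncf1 (ENSMUSG00000015950) lies at chr5:134248907-134258479 on the minus strand and overlaps Gtf2ird2. Ncf4 (ENSMUSG00000071715) lies on the plus strand at chr15:78128982-78146784 with no overlapping gene, and Rac2 (ENSMUSG00000033220) on the minus strand at chr15:78443367-78457429, over a lncRNA gene. Whether the counting used strand is not given in the sources used here, so reads in the overlaps cannot be assigned to one strand.

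Promoter sequence was at hand for 3 of the 5 genes, Cybb, Cyba and Ncf1, and is shown because all 5 genes had higher estimates after CHI at 72 h in each strain. The 250 bases before each RefSeq start (GRCm38.p6, minus strand in each case) were searched on both strands for GAGGAA. This is a form of the sites bound by PU.1, the transcription factor that governs the phagocyte lineage. The positions were chrX:9469325-9469574 for Cybb, chr8:122432941-122433190 for Cyba and chr5:134229626-134229875 for Ncf1.
Cybb: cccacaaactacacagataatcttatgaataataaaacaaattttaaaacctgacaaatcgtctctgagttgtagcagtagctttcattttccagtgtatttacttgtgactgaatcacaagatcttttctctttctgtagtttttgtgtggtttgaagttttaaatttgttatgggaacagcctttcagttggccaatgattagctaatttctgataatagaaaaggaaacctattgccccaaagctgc
Cyba: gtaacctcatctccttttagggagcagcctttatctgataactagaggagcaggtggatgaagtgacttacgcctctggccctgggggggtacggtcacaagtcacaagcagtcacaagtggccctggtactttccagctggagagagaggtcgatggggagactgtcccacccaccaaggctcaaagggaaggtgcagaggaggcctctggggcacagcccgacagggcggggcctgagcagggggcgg
Ncf1: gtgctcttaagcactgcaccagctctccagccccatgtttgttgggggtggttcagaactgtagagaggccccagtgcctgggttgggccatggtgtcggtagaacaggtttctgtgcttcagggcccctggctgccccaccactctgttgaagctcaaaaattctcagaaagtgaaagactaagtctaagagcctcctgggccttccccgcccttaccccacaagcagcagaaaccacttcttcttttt
The 6 letters were found in 0 of these 3 windows, and in 23.3% of the 32851 promoter windows of the same length. The longer GAGGAAGT, which contains them, was in 2.44% of all windows. No capitals are shown because no match was found, which says only that these letters are not in these windows. Forms of the site without these 6 letters were not searched.

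Set per length of transcript, Cyba was the most abundant of the 5, with a median of 12.1 TPM (transcript abundance scaled to gene length and library) over the 200 mice and a range from 4.46 to 26. Ncf1 followed at 5.12 TPM (2.82 to 9.39). Rac2 and Ncf4 were close, at 1.14 TPM (0.354 to 8.16) and 1.01 TPM (0.113 to 4.49), and their ranges overlapped. Cybb was lowest, at 0.365 TPM (0 to 5.19).

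The count behind these levels was small. The estimated count per mouse was 71 to 429 for Ncf1, and its median was 63.5 for Cyba, 37 for Rac2, 17 for Cybb and 12 for Ncf4. Under 10 counts were recorded in 38 of 200 mice for Cybb and in 61 for Ncf4. For these low genes, the TPM of single mice also followed the transcript length that the estimate assigned. The length implied by a mouse's count and TPM was under 0.5 times the gene's median in 22 mice for Cybb, 27 for Ncf4 and 6 for Rac2, and in 0 for Cyba and Ncf1. In those mice the median TPM of Ncf4 was 2.7, against 0.939 in the others, while the median CPM was 0.437 against 0.583. The highest Rac2 value, 8.16 TPM in a C57BL/6J CHI mouse at 9 h, came with an ordinary 1.15 CPM from 33 counts. Values per mouse are therefore given as CPM scaled with TMM factors, and TPM serves only to compare genes.

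**Figure D1:**
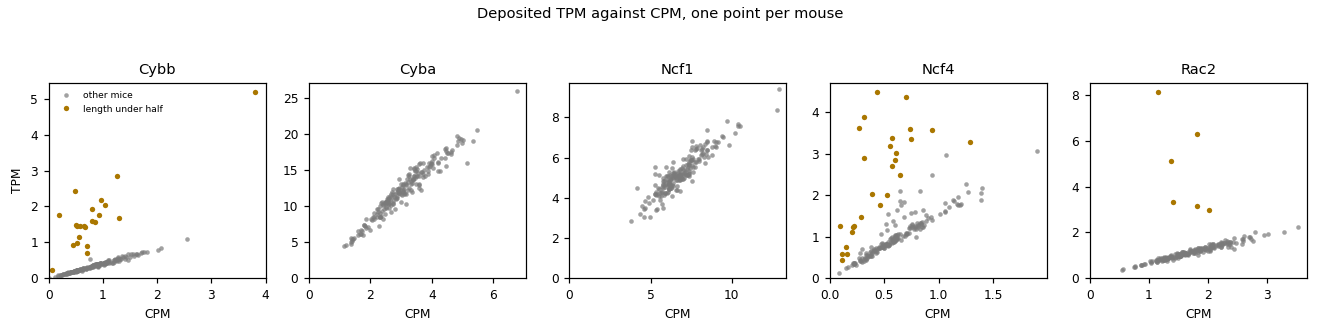
Deposited TPM (y axis) against TMM-normalized CPM (x axis) for each of the 200 mice, with 1 panel per gene. Mice whose implied transcript length was under 0.5 times the gene's median are in ochre: 22 for Cybb, 27 for Ncf4, 6 for Rac2 and 0 for Cyba and Ncf1, and they lie above the line that the other mice form.

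In the plot of CPM by mouse over the 24 groups of strain, surgery and time, sham and CHI points overlap in every comparison. The tests therefore turn on shifts of groups that overlap.

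**Figure D2:**
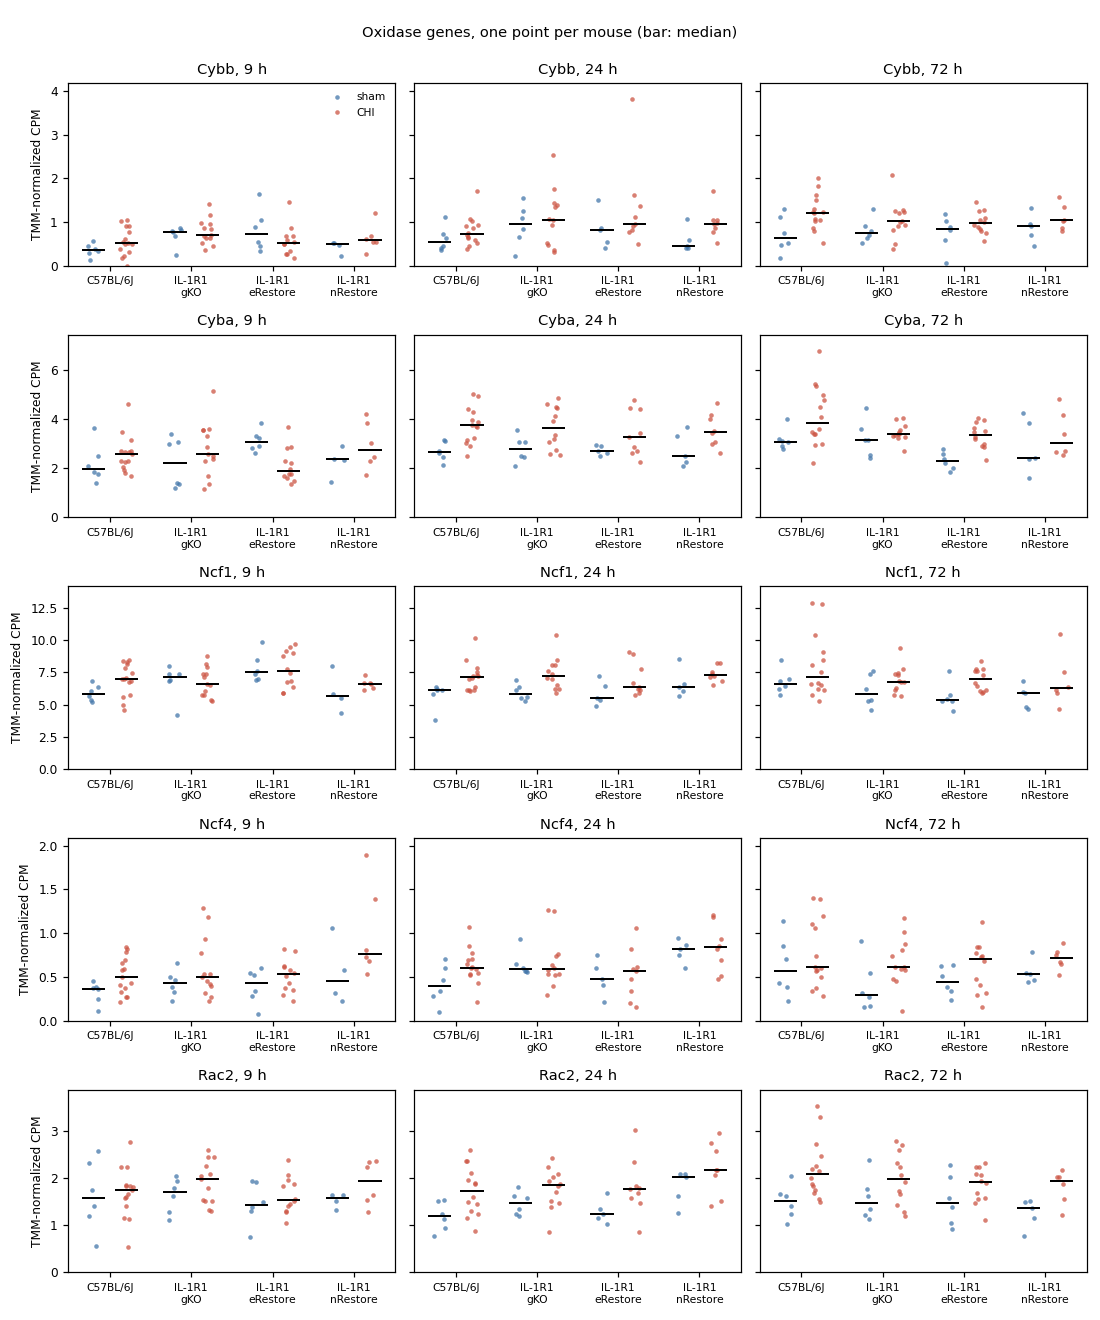
TMM-normalized CPM (y axis, from 0) of each gene in every mouse, by strain (x axis), time (columns) and surgery (blue sham, red CHI), with a bar at each group's median. CHI and sham points overlap, and the difference within a strain that passed the test was that of Cyba in IL-1R1 eRestore at 9 h, with medians of 3.07 in sham and 1.88 in CHI mice.

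Cybb, the catalytic subunit, did not pass edgeR's test at any time. Over the 4 strains at 72 h its lowest, median and highest values were 0.06, 0.80 and 1.31 CPM in sham mice and 0.39, 1.04 and 2.07 CPM in CHI mice, so the CHI values lay higher with a wide overlap. The log2 fold change was 0.50 ± 0.15 (SE, edgeR quasi-likelihood test, Benjamini-Hochberg adjusted p = 0.161). At 9 h it was 0.18 ± 0.20 (adjusted p = 0.576) and at 24 h 0.19 ± 0.19 (adjusted p = 0.709). DESeq2 with gene-length offsets, which use the implied lengths that varied between mice, gave 0.72 ± 0.27 at 9 h (adjusted p = 0.0406). Within strains the estimates at 72 h were 0.81 ± 0.30 in C57BL/6J, 0.31 ± 0.31 in IL-1R1 gKO, 0.42 ± 0.33 in IL-1R1 eRestore and 0.39 ± 0.30 in IL-1R1 nRestore, each above 0. At 9 h the IL-1R1 eRestore estimate was below 0, at -0.53 ± 0.38. The sham medians at 9 h were 0.35 CPM in C57BL/6J, 0.78 in IL-1R1 gKO and 0.72 in IL-1R1 eRestore, and in IL-1R1 nRestore the 4 sham mice had 0.21, 0.48, 0.51 and 0.53 CPM.

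Cyba, which holds the catalytic chain in the membrane, fell in one strain at the earliest time. In IL-1R1 eRestore mice at 9 h the 6 sham mice had 2.61, 3.07 and 3.85 CPM (lowest, median, highest) and the 12 CHI mice 1.35, 1.88 and 3.69 CPM. Of the 12 CHI mice, 9 lay below every sham mouse and 0 lay above every one. The log2 fold change was -0.69 ± 0.15 (adjusted p = 0.00985), a fold of 0.62. Of all genes tested in that comparison 7.34% passed the same test, so 1 of 5 is to be read against that share. In the other strains the estimates at 9 h were above 0, namely 0.22 ± 0.17 in C57BL/6J, 0.32 ± 0.28 in IL-1R1 gKO and 0.55 ± 0.29 in IL-1R1 nRestore. The difference from C57BL/6J, tested directly, was -0.79 ± 0.33 (p = 0.0186, adjusted p = 0.456) and did not pass.

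The call for Cyba depended on the covariates and on how experiment entered the fit. Without covariates the estimate was -0.57 ± 0.19 (edgeR, adjusted p = 0.0827). With experiment as a term in place of age, it was -0.53 ± 0.17 (adjusted p = 0.0655). Within the 2 experiments it was -0.79 ± 0.23 (adjusted p = 0.121) and -0.39 ± 0.29 (adjusted p = 0.584), the same direction in both with fewer mice. The highest sum over the 4 choroid plexus markers was 6200 TPM in these sham mice and 369 in these CHI mice, while the medians were close, at 29.9 and 23.3. The part of these markers in the result was not tested.

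At 24 and 72 h Cyba was higher after CHI without passing edgeR's test, close to the threshold. At 24 h, sham mice had 2.09, 2.69 and 3.70 CPM and CHI mice 2.26, 3.53 and 5.03 CPM, with a log2 fold change of 0.27 ± 0.08 (adjusted p = 0.0622). At 72 h, sham mice had 1.60, 2.81 and 4.46 CPM and CHI mice 2.22, 3.44 and 6.79 CPM, with 0.32 ± 0.09 (adjusted p = 0.0553). With DESeq2 size factors it passed at both times (adjusted p = 0.0376 and 0.036), and with gene-length offsets at 72 h (adjusted p = 0.0323). Of 14 alternative fits, 4 passed at 24 h and 6 at 72 h, and the highest adjusted p among them was 0.533 and 0.729. In C57BL/6J at 24 h, 11 of 14 CHI mice lay above every sham mouse (0.42 ± 0.14, adjusted p = 0.272). In IL-1R1 eRestore at 72 h, 11 of 12 did (0.50 ± 0.14, adjusted p = 0.612). Most CHI mice of these groups stood above the sham range, yet neither comparison passed the test over all genes. The sham IL-1R1 eRestore mice at 72 h were lower in Cyba than sham C57BL/6J mice by the estimate (-0.45 ± 0.19, p = 0.0216, edgeR, adjusted p = 0.49).

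Ncf1, which organises the cytosolic subunits, had the smallest SE of the 5 genes at each time, and was higher after CHI at 24 and 72 h without passing. At 24 h, sham mice had 3.77, 6.10 and 8.52 CPM and CHI mice 5.77, 7.16 and 10.43 CPM. The log2 fold change was 0.18 ± 0.06 (adjusted p = 0.0976). At 72 h, sham mice had 4.49, 5.87 and 8.43 CPM and CHI mice 4.64, 6.74 and 12.89 CPM, a change of 0.26 ± 0.07 (adjusted p = 0.0952). At 9 h it was 0.08 ± 0.07 (adjusted p = 0.407). In C57BL/6J at 24 h, 10 of 14 CHI mice lay above all sham mice (0.28 ± 0.11, adjusted p = 0.431). In IL-1R1 gKO 8 of 12 did (0.21 ± 0.12, adjusted p = 0.668), and neither comparison passed. Of these 12 IL-1R1 gKO CHI mice, 5 came from an experiment with no IL-1R1 gKO sham mouse. The same experiment gave 5 of the 14 C57BL/6J CHI mice and 1 C57BL/6J sham mouse at 24 h.

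Ncf4, a cytosolic subunit that binds membrane phosphoinositide, rose at 9 h over the 4 strains. The 22 sham mice had 0.08, 0.38 and 1.06 CPM and the 46 CHI mice 0.21, 0.53 and 1.90 CPM. The log2 fold change was 0.59 ± 0.18 (adjusted p = 0.0139), a fold of 1.50. At 9 h 23.9% of all genes tested passed over the 4 strains, and 1 of the 5 genes did, a share close to that background. Estimates within strains were all above 0, from 0.34 ± 0.35 in IL-1R1 eRestore to 1.15 ± 0.51 in IL-1R1 nRestore. In IL-1R1 nRestore the 4 sham mice had 0.22, 0.32, 0.58 and 1.06 CPM and the 6 CHI mice 0.54, 0.77 and 1.90 CPM (lowest, median, highest), so the CHI mice were mostly higher but overlapped the upper sham mice.

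This rise rested on few counts and on the mice included. Within the 3 experiments at 9 h the estimates were 0.56 ± 0.29 (adjusted p = 0.263), 0.28 ± 0.32 (adjusted p = 0.659) and 1.01 ± 0.35 (adjusted p = 0.149). Without the C57BL/6J mice the adjusted p was 0.0978, and without the IL-1R1 nRestore mice 0.0552. It did not pass with DESeq2 gene-length offsets (0.55 ± 0.24, adjusted p = 0.0865) or with limma on log2(TPM + 0.1) (0.45 ± 0.21, adjusted p = 0.145) and log2(TPM + 1) (0.24 ± 0.12, adjusted p = 0.166). Red blood cell markers stood higher in the same comparison: all 5 had estimates above 0 (0.98 to 1.34, 0 called), and their sum ran from 3.16 to 764 TPM in sham and from 3.91 to 1390 TPM in CHI mice. Their part in the result was not tested. At 24 h the change of Ncf4 was 0.10 ± 0.17 (adjusted p = 0.838) and at 72 h 0.44 ± 0.18 (adjusted p = 0.529).

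Rac2, the GTPase that switches the assembled oxidase on, rose at 72 h over the 4 strains. The 23 sham mice had 0.77, 1.42 and 2.38 CPM and the 44 CHI mice 1.12, 1.98 and 3.53 CPM. The log2 fold change was 0.39 ± 0.10 (adjusted p = 0.0345), a fold of 1.31. At 72 h 0.706% of all genes tested passed over the 4 strains, against 1 of these 5. The strain estimates were 0.51 ± 0.20 in C57BL/6J, 0.22 ± 0.23 in IL-1R1 gKO, 0.27 ± 0.20 in IL-1R1 eRestore and 0.50 ± 0.24 in IL-1R1 nRestore. In IL-1R1 nRestore the 5 sham mice had 0.77, 1.16, 1.37, 1.50 and 1.51 CPM, and 5 of the 6 CHI mice lay above all of them.

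The call for Rac2 did not hold when any 1 strain was left out, with adjusted p from 0.082 to 0.487, while the estimate stayed between 0.34 and 0.44. Within experiments it was 0.39 ± 0.15 (adjusted p = 0.436), 0.17 ± 0.21 (adjusted p = 0.744) and 0.41 ± 0.26 (adjusted p = 1). The fourth experiment at 72 h held too few mice for a fit. At 24 h the change of Rac2 was 0.31 ± 0.11 (adjusted p = 0.154), and at 9 h 0.18 ± 0.11 (adjusted p = 0.23).

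In the fit with sex and age, all 20 estimates of the 5 genes in the 4 strains were above 0 at 72 h, as were 15 of 20 at 24 h and 16 of 20 at 9 h. The count at 24 h depended on the covariates. Without them 20 of 20 estimates were above 0 at 24 h, the mean CPM was higher in CHI than in sham mice in 20 of 20 cases, and 16 and 20 of 20 were higher at 9 and 72 h by either measure. With covariates, 5 of the 5 genes were higher in each of the 4 strains at 72 h, as were 9.08% of all genes tested in all 4. At 24 h 2 of 5 were (Cyba and Ncf1, against 9.83% of all genes), or 5 of 5 without covariates, and at 9 h 2 of 5 (Ncf4 and Rac2, against 17.5%). Over the strains at 24 h, Cyba (0.40 ± 0.08, adjusted p = 0.00197), Ncf1 (0.27 ± 0.06, adjusted p = 0.0047) and Rac2 (0.39 ± 0.10, adjusted p = 0.0277) passed edgeR's test without covariates. With sex and age in the fit their values were 0.27, 0.18 and 0.31, and 0 of the 5 genes passed. At 24 h, 1 experiment held CHI mice of all 4 strains and 1 sham mouse, of C57BL/6J. Without covariates, surgery, experiment and age therefore cannot be told apart in these values. Over the strains the 5 genes had median log2 fold changes of 0.18, 0.19 and 0.39 in time order, beside 0.00 for all genes at each time. The CHI and sham mice of different strains share no animal, but the 5 genes share every library.

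**Figure D3:**
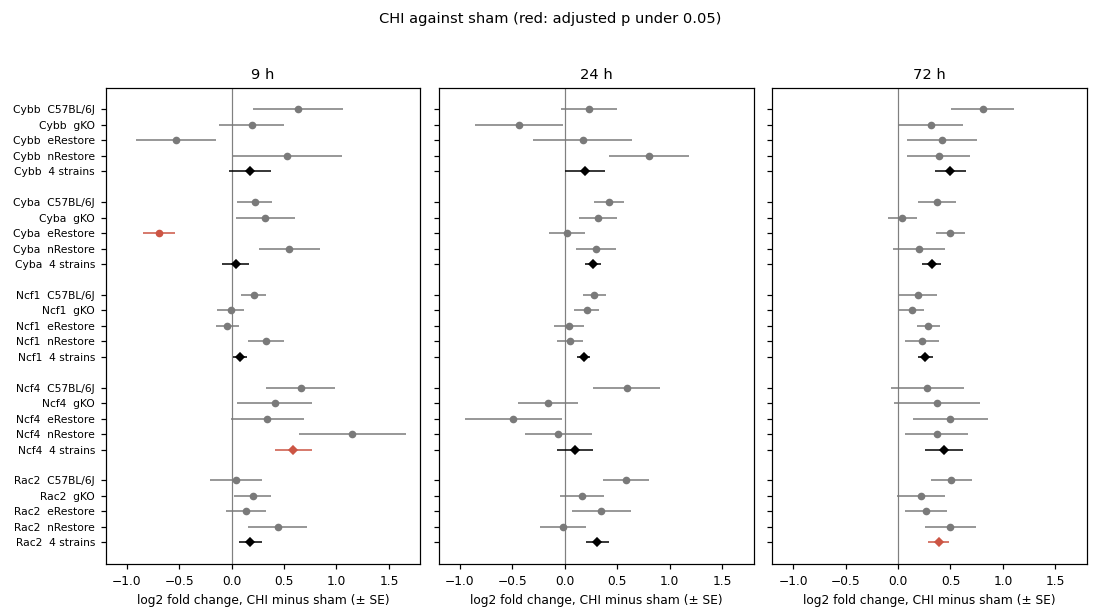
Log2 fold change of CHI against sham (x axis, with SE) for each gene in each strain (circles) and over the 4 strains (diamonds) at 9, 24 and 72 h. Red marks adjusted p under 0.05: Cyba in IL-1R1 eRestore at 9 h (-0.69), Ncf4 over the strains at 9 h (0.59) and Rac2 over the strains at 72 h (0.39), and at 72 h all 20 circles lie right of 0.

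Within strains, 1 of the 60 estimates passed the adjusted test, the one for Cyba given above, and 10 had an unadjusted p under 0.05. The share of all genes with such a p ran from 2.25% to 27.8% by comparison. At 9 h 0 of 5 genes passed in C57BL/6J, where 14.1% of all genes did, 0 of 5 in IL-1R1 gKO (0.199%) and 0 of 5 in IL-1R1 nRestore (0.608%). At 24 h 0 of 5 passed in each strain, where 0.404% of all genes did in C57BL/6J, 0.0059% in IL-1R1 gKO, 0% in IL-1R1 eRestore and 0% in IL-1R1 nRestore. At 72 h 0 of 5 passed in each strain as well, where 0% of all genes did in C57BL/6J, 0% in IL-1R1 gKO, 0.00605% in IL-1R1 eRestore and 0.0121% in IL-1R1 nRestore. Over the 4 strains at 24 h 0 of 5 passed (edgeR), and 1.48% of all genes did. At an unadjusted p under 0.05 were 3 of 5, and 14% of all genes. DESeq2 with size factors called 0 of 5 within each strain and time it gave values for, apart from 1 in IL-1R1 eRestore at 9 h, and over the strains it called 1, 1 and 2 of 5 at 9, 24 and 72 h, where it called 25%, 2.55% and 0.804% of all genes. With gene-length offsets DESeq2 called 1, 0 and 1 of 5 over the strains (Cybb at 9 h and Cyba at 72 h, neither of them called by edgeR with sex and age), beside 20.7%, 1.47% and 0.69% of all genes.

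The CHI effect of the 5 genes was not shown to differ between strains. Of 45 differences from the C57BL/6J effect, 0 passed (edgeR). An unadjusted p under 0.05 was found for 2, and for 2.87% to 8.58% of all genes by comparison. The 2 were the differences of Cyba and Cybb in IL-1R1 eRestore at 9 h. That of Cybb was -1.14 ± 0.53 (p = 0.036, adjusted p = 0.533). The share of all genes past the adjusted test was 0% in IL-1R1 gKO, 0.0107% in IL-1R1 eRestore and 0.00534% in IL-1R1 nRestore at 9 h. It was 0.00541%, 0.0108% and 0% at 24 h and 0%, 0% and 0.00543% at 72 h. With SEs from 0.14 to 0.63, a difference of the size of the called effects could be missed.

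Sham mice of the strains were also compared, since a shifted baseline would enter each effect. Of 45 differences from sham C57BL/6J, 0 passed (edgeR) and 7 had an unadjusted p under 0.05. Of all genes 7.5% to 20.6% had such a p, by comparison, so the count of 7 does not stand out from that background. In IL-1R1 eRestore at 9 h, where the CHI estimates of Cyba, Cybb and Ncf1 were below 0, sham mice stood higher in Ncf1 (0.43 ± 0.14, p = 0.00413, adjusted p = 0.102) and Cybb (1.16 ± 0.45, p = 0.0123, adjusted p = 0.173). For Cyba, which was called there, the sham difference was 0.44 ± 0.27 (p = 0.109, adjusted p = 0.434). Its sham median was 3.07 CPM in IL-1R1 eRestore, against 1.97 in C57BL/6J, 2.21 in IL-1R1 gKO and 2.38 in IL-1R1 nRestore. At 24 h Ncf4 was 1.02 ± 0.35 higher on the log2 scale in IL-1R1 nRestore (adjusted p = 0.0794) and Rac2 0.66 ± 0.24 higher (adjusted p = 0.0893). The 5 sham IL-1R1 nRestore mice had 0.60, 0.76, 0.82, 0.87 and 0.94 CPM of Ncf4, where sham C57BL/6J mice had 0.10, 0.40 and 0.70 CPM (lowest, median, highest). Of all genes, 0.63%, 2.29% and 0.694% passed at 9 h in IL-1R1 gKO, eRestore and nRestore. The shares were 3.99%, 1.01% and 4.44% at 24 h and 0.293%, 0.456% and 0.598% at 72 h.

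No difference of the 5 genes by time or by sex passed the adjusted test. Of 15 changes of the CHI effect between times 0 passed (edgeR), and the one with an unadjusted p under 0.05 was Ncf4 from 9 to 24 h (-0.51 ± 0.25, p = 0.0485, adjusted p = 0.226). From 9 to 24 h 21.7% of all genes had an unadjusted p under 0.05. Of all genes 9.63% passed from 9 to 24 h, 0.0249% from 24 to 72 h and 11.8% from 9 to 72 h. Between females and males 0 of 15 differences passed (edgeR), and 0.096%, 0.2% and 0.125% of all genes passed at 9, 24 and 72 h. At an unadjusted p under 0.05 were 4.64%, 7.76% and 6.69% of all genes, and 2 of the 15 differences. Those 2 were Cybb at 9 h, higher in females by 0.42 ± 0.20 (adjusted p = 0.999), an X-linked gene, and Rac2 at 9 h, -0.22 ± 0.11 (adjusted p = 0.999).

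Partners and regulators of the oxidase were called in both directions at 9 h and upward at 72 h. Of 21 such genes, 1 rose and 6 fell at 9 h, 0 passed at 24 h (edgeR, 0 at an unadjusted p under 0.05), and 2 rose and 0 fell at 72 h, with medians of 0.02, 0.01 and 0.03 beside 0.00 for all genes. These counts stand beside the 23.9%, 1.48% and 0.706% of all genes called in either direction at 9, 24 and 72 h. At 9 h Cybc1, the chaperone needed for the membrane pair, rose by 0.21 ± 0.06 (adjusted p = 0.00377). Dock2, an exchange factor for Rac, fell at 9 h (-0.21 ± 0.07, adjusted p = 0.0153) and rose at 72 h (0.32 ± 0.07, adjusted p = 0.00252). At 72 h Vav1, a further exchange factor, rose by 0.35 ± 0.07 (adjusted p = 8.63e-04).

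Surface receptors of phagocytes and their adaptor chains were measured too. Of 14 tested at 9 h, 5 rose and 1 fell. Of 14 at 24 h 2 rose, and of 13 at 72 h 9 rose. Of all genes 23.9%, 1.48% and 0.706% were called at these times. The complement receptors C5ar1 and C3ar1 rose by 1.69 ± 0.18 (adjusted p = 1.55e-11) and 1.09 ± 0.12 (adjusted p = 7.07e-11) at 9 h. Clec7a, the receptor for beta-glucan, rose by 0.80 ± 0.22 (adjusted p = 0.0448) at 24 h and by 1.75 ± 0.20 (adjusted p = 1.68e-08) at 72 h. Itgam, the integrin chain CD11b, fell at 9 h (-0.38 ± 0.07, adjusted p = 4.07e-05) and rose at 72 h (0.22 ± 0.05, adjusted p = 0.00188). The list medians were 0.13, 0.13 and 0.37.

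Among 6 transcription factors of the lineage, Runx1, Cebpb and Cebpa rose at 9 h by 0.52 ± 0.12, 0.31 ± 0.08 and 0.37 ± 0.09, 0 passed at 24 h (edgeR, 0 at an unadjusted p under 0.05), and Irf8 rose at 72 h by 0.29 ± 0.07 (adjusted p = 0.0102), where 23.9%, 1.48% and 0.706% of all genes were called at 9, 24 and 72 h. The 11 genes that remove superoxide and peroxide had 0 calls at each time (edgeR). An unadjusted p under 0.05 was found for 1, 0 and 1 of them at 9, 24 and 72 h, beside 34.3%, 14% and 7.46% of all genes. Of 9 other NADPH oxidase genes, 2 had enough counts at 9 and 24 h and 1 at 72 h, and Noxo1, an organiser of another oxidase, was lower at 9 h (-0.49 ± 0.16, adjusted p = 0.0177).

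**Figure D4:**
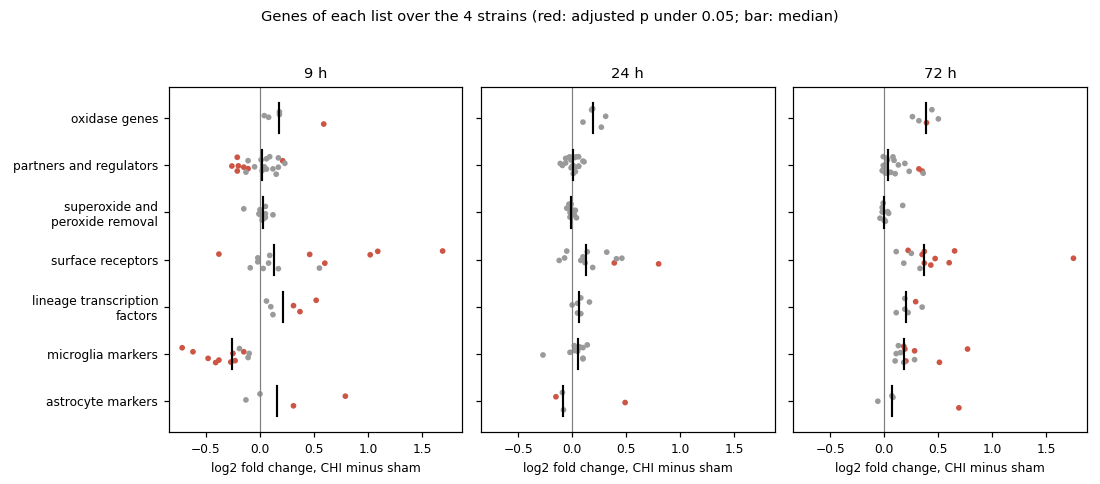
Log2 fold change of CHI against sham over the 4 strains (x axis) for each gene of 7 lists at 9, 24 and 72 h, with bars at the list medians and red for adjusted p under 0.05. Microglia markers lie left of 0 at 9 h (9 of 12 lower) and right of 0 at 72 h (6 of 12 higher), and surface receptors at 72 h are all right of 0. Of all genes 23.9% were called at 9 h and 0.706% at 72 h.

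Markers of the cells that could carry these genes were measured in the same libraries. Counts of called markers are to be read against 23.9%, 1.48% and 0.706% of all genes called at 9, 24 and 72 h. At an unadjusted p under 0.05 (edgeR) the shares were 34.3%, 14% and 7.46%. Of 12 microglia markers, 9 fell and 0 rose at 9 h, 0 passed at 24 h (edgeR, 2 at an unadjusted p under 0.05), and 6 rose and 0 fell at 72 h. The median of their summed level was 359 TPM in sham mice (highest 533) and 324 TPM in CHI mice (highest 476) at 9 h. At 72 h the sums ran from 312 to 458 TPM in sham and from 339 to 593 TPM in CHI mice. The rise of Rac2 at 72 h came at the time when these markers rose, and that of Ncf4 at 9 h when they fell. Neutrophil markers were low: of 12, 11 had too few counts to test, and Ly6g had any count in 5 and Elane in 7 of 200 mice. Others were seen more often, with S100a9 at 0 in 80 mice, S100a8 at 0 in 96 and Mmp9 at 0 in none of the 200 mice (a median of 24 counts). One IL-1R1 gKO CHI mouse at 9 h had a summed 82.7 TPM over these markers, where the next highest of all 200 had 9.94. That mouse had 8.80 CPM of Ncf1, 2.60 of Rac2 and 1.41 of Cybb, the highest of its group for these 3. It had 0.50 CPM of Ncf4, where the group median was 0.50, and 3.60 of Cyba, where the highest of the group was 5.16. Without that mouse Ncf4 over the strains at 9 h stood at 0.59 ± 0.19 (adjusted p = 0.0143). The 1 testable neutrophil marker was Mmp9, and the 2 testable of 6 monocyte markers were Ccr2 and Vcan. These had 0 calls at each time (edgeR, 0 at an unadjusted p under 0.05). The median count was 6 for Ccr2 and 426.5 for Vcan, which had counts in all 200 mice. Most markers of these cells had too few counts to test, so these calls do not show whether such cells entered. Of 7 border macrophage markers 2 rose and 1 fell at 9 h, 1 rose at 24 h and 0 passed at 72 h (edgeR, 4 at an unadjusted p under 0.05). All 5 red blood cell markers and the 2 testable T, NK and B cell markers, Trac and Cd4, had 0 calls at each time (edgeR). At 9 h 4 red blood cell markers had an unadjusted p under 0.05. Of 5 neuron markers 1 rose at 9 h, and of 4 oligodendrocyte markers 0 passed at any time (edgeR, 0 at an unadjusted p under 0.05). The 4 choroid plexus markers all fell at 9 h, with 9.44 to 6200 TPM in sham and 5.02 to 2500 in CHI mice. Of 4 astrocyte markers 2 rose at 9 h, 1 rose and 1 fell at 24 h, and 1 rose at 72 h. What part any of these had in the oxidase results was not tested.

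The 5 genes varied together only weakly from mouse to mouse. After removal of the means of the 24 groups, Pearson's r between pairs of them lay between 0.03 (Cybb and Ncf4) and 0.23 (Ncf1 and Rac2) over 200 mice. The counts are sparse and the mice share depth and library steps, so these are descriptions only. The genes most like the mean of the 5 were Gfap (r = 0.62), C1qb (0.54), Cyth4 (0.54), Ly86 (0.53), Necap2 (0.52), C1qa (0.52), Dhrs4 (0.52), Anxa3 (0.51), Ctla2a (0.50) and C4b (0.49), where the median over 20106 genes was 0.02. Gfap is the astrocyte filament gene, and C1qa and C1qb encode complement chains made by microglia. Taken alone, Cyba was most like Ndufa8 (r = 0.74), Higd2a (0.72) and Anapc11 (0.72), the first of which encodes a respiratory chain subunit, and Rac2 was most like Laptm5 (0.41), Spi1 (0.39) and C1qb (0.38). These single-gene lists were looked up after the values were seen.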

How the data were processed

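Poly(A) RNA of 1 hemisphere per mouse was sequenced by the authors. They made the tables with nf-core/rnaseq, STAR and Salmon on GRCm39, and the annotation release is not given in the sources used here. The authors deposited estimated counts and TPM per gene for 200 mice, and all columns were matched to labels. Here the estimated counts were rounded and tested with edgeR 4.0.16 in R 4.3.3 (TMM factors, robust quasi-likelihood, keeping each gene that reached 10 counts in a number of mice equal to the smallest group), with sex and age as covariates and strain where strains were pooled. Sex was dropped where all mice were male. P-values were adjusted by Benjamini-Hochberg over all genes tested, at a threshold of 0.05. Mice are separate animals. Alternatives used DESeq2 1.42.0, limma 3.58.1 on log2(TPM + 0.1) and log2(TPM + 1), other factors, filters and covariates, and subsets of mice. Fits were tested on simulated data. The genes changed there had higher counts than Cybb and Ncf4 had in most mice, and larger changes than most of the 5 genes here. The simulation therefore does not bear on small changes at low counts. Genes were named as all 5 members, called genes of the gene lists and the 10 genes most like the members. The members and lists were chosen with earlier results of these data known, and 1 gene of the lists is not reported here. Gene positions came from GENCODE on GRCm39 and promoters from RefSeq on GRCm38.p6.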

Additional observations from a re-analysis of the deposited data

Results flagged for a closer look

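In 80 checks of the 5 genes in groups of 4 to 10 mice, 7 mice stood far from the rest of their group on the log2 scale of CPM, where chance gives about 1 in 20 such groups. Cybb was low in 3 sham mice: 0.06 CPM in IL-1R1 eRestore at 72 h (1 count, nearest mouse 0.58), 0.24 in IL-1R1 gKO at 9 h (7 counts, nearest 0.68) and 0.21 in IL-1R1 nRestore at 9 h (4 counts, nearest 0.48). Ncf1 was low in 2 sham mice: 3.77 CPM in C57BL/6J at 24 h (nearest 5.85) and 4.17 in IL-1R1 gKO at 9 h (nearest 6.84). Cyba was high in 1 C57BL/6J sham mouse at 72 h, at 4.01 CPM (nearest 3.19), and Ncf4 in 1 IL-1R1 gKO sham mouse at 24 h, at 0.93 (nearest 0.65). All 7 were sham mice, and groups of more than 10 mice, which hold most CHI mice, were not checked.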

How the results depend on the processing

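Values are log2 fold changes of CHI against sham over the 4 strains unless a strain is named, and p is adjusted. Ncf4 at 9 h (0.59) kept its direction in all 17 alternatives and lost the call with DESeq2 gene-length offsets (0.55), in the largest experiment (0.56, the first of 0.56, 0.28 and 1.01 in single experiments, chosen after seeing the data), with limma on log2(TPM + 0.1) (0.45) and log2(TPM + 1) (0.24), without C57BL/6J (0.55) and without IL-1R1 nRestore mice (0.51). Rac2 at 72 h (0.39) kept its direction in all 17 and lost the call with length offsets (0.31), no filter (0.39), the largest experiment (0.39, beside 0.17 and 0.41 in others), limma (0.34 and 0.19) and without C57BL/6J (0.34), IL-1R1 gKO (0.42), eRestore (0.44) or nRestore mice (0.36). Cyba at 24 h (0.27) passed in 4 of 14 alternatives, with DESeq2 size factors (0.27), no covariates (0.40) and limma (0.28 and 0.26). Cyba at 72 h (0.32) passed in 6 of 14, with DESeq2 size factors (0.31), length offsets (0.32), experiment as a term (0.30), the largest experiment (0.42) and limma (0.35 and 0.32). Cybb at 9 h passed with length offsets (0.72), and Ncf1 (0.27) and Rac2 (0.39) at 24 h without covariates. Estimates near 0 turned: Cyba at 9 h in the largest experiment (-0.16) and without C57BL/6J (-0.03), IL-1R1 gKO (-0.15) or nRestore mice (-0.02), Ncf1 at 9 h in the largest experiment (-0.03), and Ncf4 at 24 h without C57BL/6J (-0.08). In IL-1R1 eRestore at 9 h the call of Cyba was lost without covariates (-0.57, p = 0.0827), so 0 genes were called there and also with experiment as a term and in the largest experiment, and it was held without each sham mouse in turn. The number of genes called over the strains at 9 h (1) went to 0 with at least 10 counts in every mouse, which left out Ncf4, with limma, in the largest experiment and without C57BL/6J or IL-1R1 nRestore mice, at 24 h (0) to 1 with DESeq2 size factors and with limma and to 3 without covariates, and at 72 h (1) to 2 with DESeq2 size factors or experiment as a term and to 0 with no filter or any strain left out. The causes were not tested. Length offsets use the implied lengths that vary between mice for Cybb, Ncf4 and Rac2. Low counts of Cybb and Ncf4 limit what can be detected. No paired analysis was possible because the labels give no numbers that pair mice.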
